A study of Mus musculus with 8 samples.

Results

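Transcripts of the meninges and of the mesenchyme around the brain were examined in whole-brain RNA through 10 genes other than collagens, namely Dcn, Lum, Ogn, Postn, Foxc1, Twist1, Prrx1, Igf2, Crabp2 and Aldh1a2. The genes were chosen by name, with earlier results of these data known. Every probe set annotated to one of them alone was taken, which gave 19 probe sets among 45037 tested and 10 genes among 18193. Brain RNA of E12.5 C57/BL6 embryos was hybridized to Affymetrix Mouse 430_2 arrays, with 4 Nestin Cre+, Rest GTi/GTi arrays and 4 Rest GTi/GTi littermate control arrays, to ask how gene expression differs when REST, a repressor of neuronal genes, is lost from neural progenitors. GTi is a gene trap in the Rest gene turned so that it is spliced out until Cre turns it back, and it was homozygous in both genotypes. The Nestin Cre transgene, which acts in neural progenitors and their progeny, was carried by every Cre+ embryo and by no control, so that an effect of Cre and an effect of REST loss cannot be told apart. Whether 1 array held RNA of 1 embryo or of several, and whether littermates were matched between genotypes, was not given in the sources used here.

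The embryonic brain is wrapped by meninges, a mesenchyme derived from neural crest and mesoderm that secretes extracellular matrix, growth factors and retinoic acid, and it lies against the mesenchyme of the skull and face. Meningeal fibroblasts express Foxc1 and the retinoic acid enzyme gene Aldh1a2, while fibroblasts in general express the proteoglycan genes Dcn and Lum. The transcripts were read to describe the surrounding tissue content of each brain sample. In bulk RNA, fewer cells of a type and less RNA per cell cannot be told apart.

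Values below are intensities after quantile normalization. Fold changes are differences of log2(intensity + 16), Cre+ Rest GTi/GTi minus control, a scale that understates the change of dim probe sets. Levels are compared between arrays within a probe set and never between genes. Cre+ replicates 1 and 2 stood apart from the other 6 arrays on the first principal component over all probe sets, which held 25.9% of the variance, with scores of -34.1 and -48.4 against 3.1 to 27. The female-specific transcript Xist was bright on controls 2 and 3 alone, so that all 4 Cre+ arrays and 2 of the controls had the male pattern. The brightest Rest probe set read 163.1, 216.7, 84.4 and 133.7 on Cre+ replicates 1 to 4 and 170.1, 271.8, 211.1 and 198.3 on controls 1 to 4, so Cre+ replicate 2 lay above 3 of the controls. A second Rest probe set read 161, 203.6, 76.6 and 77.1 against 185.1, 223.1, 158.4 and 213.4. There replicate 2 lay above controls 1 and 3 only. Neural progenitor and neuron genes were bright on all arrays. Their summed intensity was 30408, 30530, 35504 and 33139 on Cre+ replicates 1 to 4 and 33013 to 34967 in controls. The sums of replicates 1 and 2 were thus below every control, as were the neuron genes Map2, Tubb3 and Dcx on both. Stmn2, also a neuron gene, was below every control on replicate 1, at 5469.3. On replicate 2, at 6024.4, it was inside the control range. Progenitor genes differed: Nes read 1490 on replicate 1 and 987.5 on replicate 2, against 1208 to 1358.7 in controls. On replicate 1 Sox2, Pax6 and Msi1 were inside the control range.

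For most of the 10 genes, the 4 Cre+ arrays fell into a pair with high levels, replicates 1 and 2, and a pair near or below the controls, replicates 3 and 4. The latter were both inside the control range for 4 genes. For Dcn replicate 3, at 93.7, was above every control, of which the highest was 61.9. Replicate 3 was below every control for 5 genes and replicate 4 for 4. These counts have no share over all genes beside them. For Ogn and Prrx1, further probe sets had both arrays inside the control range. No member probe set passed limma at an adjusted p under 0.05 (0 of 19), and 1 of 19 had an unadjusted p under 0.05, the brighter probe set of Dcn. The methods' t-test after Benjamini-Hochberg adjustment also called 0 of 19. Over all probe sets limma called 60 higher in Cre+ brain, or 0.133%, and 3 lower, or 0.00666%, while 3.22% were higher at an unadjusted p under 0.05. None of the 19 had every Cre+ array above every control, a separation seen in 1.87% of all probe sets. Cre+ replicates 1 and 2 were the highest arrays of all in 14 of the 19 probe sets, and in 5.92% of all probe sets. In 7 of the 19 both lay at least 1 log2 unit above each of the other 6 arrays, as in 0.187% of all probe sets. Counted once per gene by its brightest probe set, replicates 1 and 2 were highest for 8 genes of 10, all but Postn and Crabp2, and led by at least 1 log2 unit for 6. No share over all genes was taken for these gene counts. The pair was singled out from its values, and the genes were chosen with earlier results known. The counts and shares are therefore descriptions and not tests. The median log2 fold change of the 10 genes was 1.02, against -0.0014 over all genes, and without Cre+ replicates 1 and 2 it was -0.19.

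**Figure D1:**
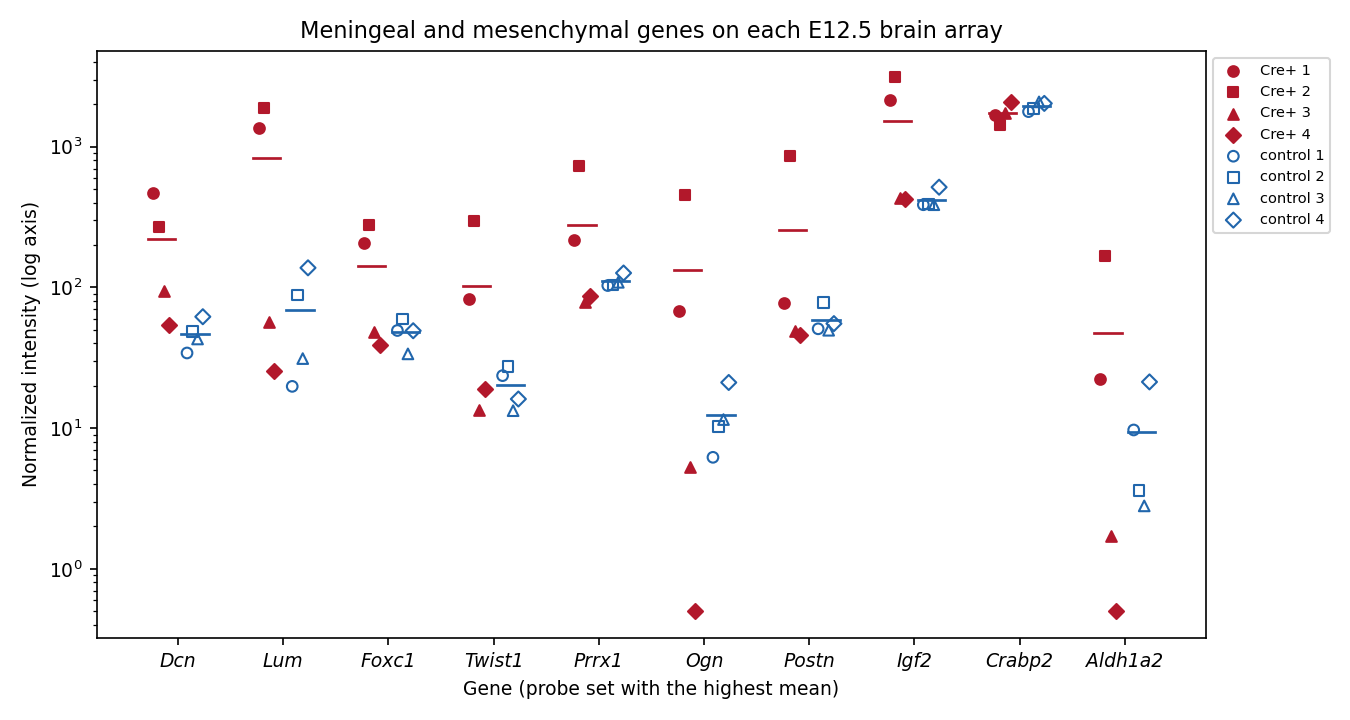
Normalized intensity (log axis) of the brightest probe set of each gene on the 4 Cre+ Rest GTi/GTi arrays (filled, red) and the 4 control arrays (open, blue), with horizontal bars at the group means and marker shapes for replicate numbers. Cre+ replicates 1 and 2 are the highest arrays for 8 genes of 10, a count with no share over all genes. Replicates 3 and 4 lie among or below the controls for most.

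The small leucine-rich proteoglycans decorin, lumican and osteoglycin bind collagen fibrils in connective tissue. Dcn, which encodes decorin, had intensities of 470, 267.1, 93.7 and 54.3 on Cre+ replicates 1 to 4 and of 34.2, 48.4, 43 and 61.9 on controls 1 to 4. Cre+ replicates 1, 2 and 3 were above every control, and replicate 4 was inside the control range. Its log2 fold change was 1.54 ± 0.55 (SE, n = 4 arrays per genotype; limma, adjusted p = 0.651), and 0.5 ± 0.23 without Cre+ replicates 1 and 2 (limma, adjusted p = 0.828). Dcn was the only gene of the 10 that was brightest on Cre+ replicate 1, 10.3 times the control median there and 5.85 times on replicate 2. The other Dcn probe set was dim on every array, 0.5 to 7.5 on Cre+ arrays and between 1.2 and 2.9 on controls, and did not follow the brighter one.

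Lum, which encodes lumican, read 1351.3, 1880.2, 57 and 25.5 on Cre+ replicates 1 to 4 and 19.8, 88.1, 31.2 and 137.8 on controls 1 to 4. The first 2 Cre+ replicates were far above all other arrays, at 22.7 and 31.5 times the control median, while replicates 3 and 4 were inside the control range. The controls themselves ranged from 19.8 to 137.8, the higher values being on controls 2 and 4. The log2 fold change of Lum was 2.05 ± 1.26 (limma, adjusted p = 0.816), the highest of the 10 genes and the one with the highest standard error, and it was -0.39 ± 0.62 without Cre+ replicates 1 and 2.

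Ogn, which encodes osteoglycin, had intensities of 68.5, 455.6, 5.3 and 0.5 on Cre+ replicates 1 to 4 and of 6.2, 10.3, 11.5 and 21.1 on controls 1 to 4. Replicates 1 and 2 were above every control, while replicates 3 and 4 were below every control. Its other probe set read 50.3, 343, 14.8 and 10.2 against 13.8, 5.3, 20.9 and 16.7, with replicates 1 and 2 again highest and replicates 3 and 4 now inside the control range. The log2 fold changes of the 2 probe sets were 1.14 ± 0.95 (limma, adjusted p = 0.88) and 1.16, and that of the brighter one was -0.57 ± 0.22 without Cre+ replicates 1 and 2 (limma, adjusted p = 0.773).

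Postn encodes periostin, a matricellular protein of periosteum, tendon and other collagen-rich tissue. It read 77.6, 857.3, 48.7 and 45.6 on Cre+ replicates 1 to 4 and 50.8, 78.1, 49.6 and 55.3 on controls 1 to 4. Only Cre+ replicate 2 was above the controls, at 16.2 times their median; replicate 1 was within their range at 1.46 times, and replicates 3 and 4 were just below it. The log2 fold change of 0.87 ± 0.78 (limma, adjusted p = 0.889) became -0.03 when replicate 2 alone was left out.

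Among transcription factor genes, Foxc1 encodes a forkhead factor needed for meninges and skull to form. Its brighter probe set read 205.3, 276, 48.5 and 38.9 on Cre+ replicates 1 to 4 and 49.4, 59.5, 33.7 and 49.2 on controls 1 to 4, and its other probe set read 101.8, 170.7, 23 and 16.6 against 20.9, 18, 13.7 and 25.4. In both, Cre+ replicates 1 and 2 were above every control and replicates 3 and 4 were inside the control range. The log2 fold changes were 0.96 ± 0.53 (limma, adjusted p = 0.789) and 1.04, and the brighter probe set was at -0.09 ± 0.18 without Cre+ replicates 1 and 2.

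Twist1 encodes a basic helix-loop-helix factor of cranial neural crest and mesenchyme. Intensities were 83.3, 298.1, 13.4 and 19 on Cre+ replicates 1 to 4 and 23.6, 27.5, 13.3 and 16.1 on controls 1 to 4. Replicate 2 was 15 times the control median and replicate 1 was 4.2 times, while replicates 3 and 4 were inside the control range. The log2 fold change was 1.08 ± 0.68 (limma, adjusted p = 0.819), and -0.15 ± 0.18 without Cre+ replicates 1 and 2.

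Prrx1 encodes a paired-related homeodomain factor of craniofacial and limb mesenchyme and was measured by 6 probe sets. The brightest read 216.4, 724.2, 79.4 and 87.5 on Cre+ replicates 1 to 4 and 103.1, 103.8, 108.7 and 126.6 on controls 1 to 4, so that replicates 1 and 2 were above every control and replicates 3 and 4 were below every control. Its log2 fold change was 0.69 ± 0.58 (limma, adjusted p = 0.883), and -0.35 ± 0.11 without Cre+ replicates 1 and 2 (limma, adjusted p = 0.657). In 3 further probe sets Cre+ replicates 1 and 2 were again the highest arrays, with replicate 2 between 82.4 and 216.4. The position of replicates 3 and 4 below the controls was not shared by these 3, where both were inside the control range. In another probe set Cre+ replicate 2 was highest at 46 but replicate 1, at 24.7, was inside the control range. The dimmest read 0.2 to 4.4 on all arrays, and the log2 fold changes of the 6 ran from 0 to 0.72.

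Sequence upstream of the start site was read for 4 of these genes, to show the stretch that Twist1 and other basic helix-loop-helix proteins would read. Those proteins bind E-boxes, written CANNTG on both strands because the motif is its own reverse complement. Shown are the 250 bases before the start, 5′ to 3′, from RefSeq on GRCm38.p6, for the genes with 1 start on the plus strand in the table used, with E-boxes in capitals: Aldh1a2 at chr9:71215539-71215788, Twist1 at chr12:33957421-33957670, Foxc1 at chr13:31806396-31806645 and Ogn at chr13:49607765-49608014.
Aldh1a2: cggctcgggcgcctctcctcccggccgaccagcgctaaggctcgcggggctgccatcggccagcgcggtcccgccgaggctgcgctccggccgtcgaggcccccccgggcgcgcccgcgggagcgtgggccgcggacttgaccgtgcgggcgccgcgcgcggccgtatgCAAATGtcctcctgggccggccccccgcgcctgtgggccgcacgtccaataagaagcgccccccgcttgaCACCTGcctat
Twist1: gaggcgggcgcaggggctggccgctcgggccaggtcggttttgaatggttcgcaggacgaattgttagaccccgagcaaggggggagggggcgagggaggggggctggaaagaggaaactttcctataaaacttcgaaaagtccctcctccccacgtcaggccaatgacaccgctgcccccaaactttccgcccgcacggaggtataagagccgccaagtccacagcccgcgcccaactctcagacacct
Foxc1: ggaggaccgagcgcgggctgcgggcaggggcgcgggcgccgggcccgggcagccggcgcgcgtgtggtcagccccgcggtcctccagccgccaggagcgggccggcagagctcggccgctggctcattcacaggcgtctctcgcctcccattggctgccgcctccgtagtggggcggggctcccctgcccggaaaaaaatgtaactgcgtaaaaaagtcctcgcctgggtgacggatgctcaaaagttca
Ogn: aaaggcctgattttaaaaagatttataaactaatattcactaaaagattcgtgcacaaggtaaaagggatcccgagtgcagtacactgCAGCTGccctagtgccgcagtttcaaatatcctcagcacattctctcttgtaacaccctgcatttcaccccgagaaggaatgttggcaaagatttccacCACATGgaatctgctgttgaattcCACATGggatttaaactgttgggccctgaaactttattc
Aldh1a2 held 2 E-boxes, whose first bases lie 81 and 11 bases before the start, and Ogn held 3, at 162, 63 and 39 bases before it, while the letters do not occur in the Twist1 and Foxc1 windows. Of all 32851 windows of this length, 66.2% held at least 1 E-box, and of the 11 windows of the 7 genes with an entry 3 did. The Aldh1a2 window was rich in G and C at 77.6%, Foxc1 stood at 70.8%, Twist1 at 62.4% and Ogn at 42.0%, around a median of 52.4% over all windows. Read on both strands, the letters TATAAA occurred 1 time before Twist1, 2 times before Ogn and in 12.4% of all windows. The 2 readings before Ogn, 1 on each strand, overlap in the single stretch tttataaa. The RE1 element bound by REST holds the letters TTCAGCACC and GGACAGCGC, and neither was found in the 11 windows on either strand, where 0.301% and 0.304% of all windows held them. A match is a description of these letters, and its absence from a window says nothing of a factor.

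**Figure D2:**
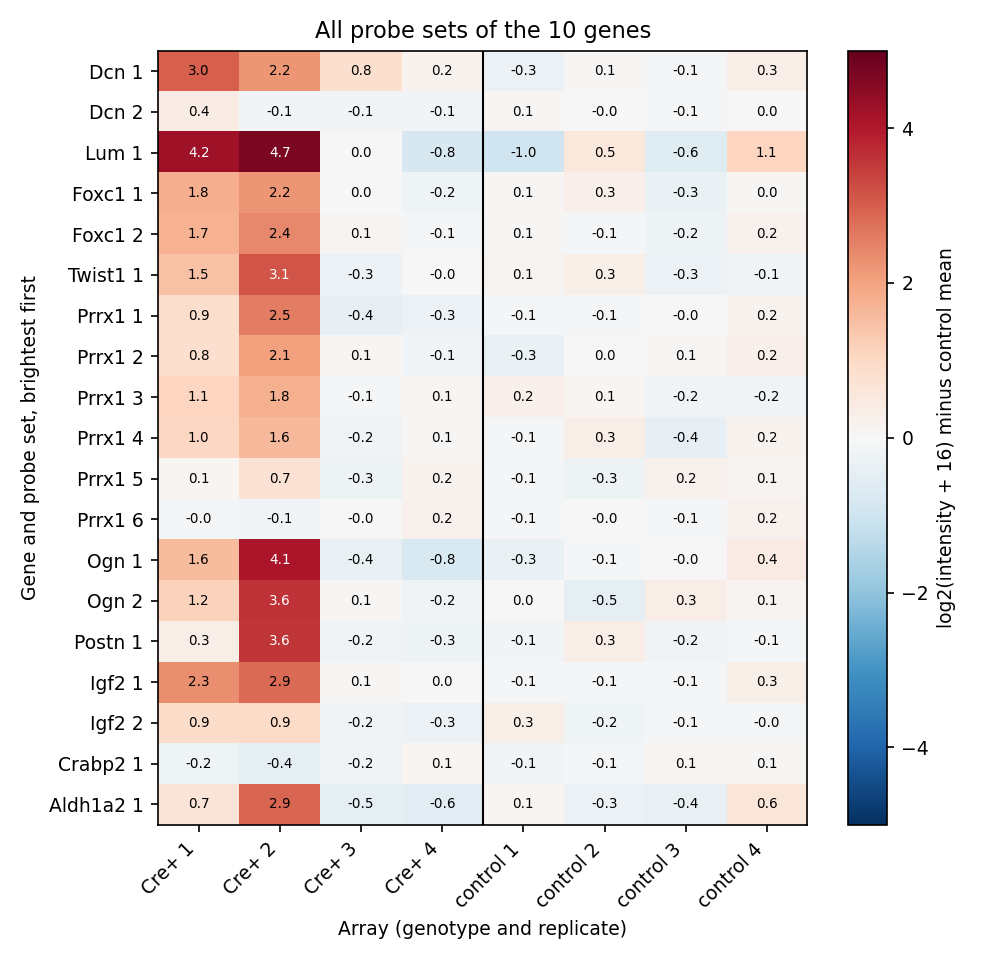
Difference of log2(intensity + 16) from the control mean for all 19 probe sets (rows, numbered within a gene from the brightest) on the 8 arrays (columns, Cre+ Rest GTi/GTi to the left of the line). The columns of Cre+ replicates 1 and 2 are positive for the brightest probe set of all genes but Crabp2, and those of replicates 3 and 4 lie nearer to the controls, below all of them for some genes.

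Igf2 encodes a fetal growth factor that is transcribed from the paternal allele in most tissues and is strongly expressed in leptomeninges, choroid plexus and mesenchyme. Its brighter probe set read 2159.9, 3108.2, 435.6 and 422.8 on Cre+ replicates 1 to 4 and 387, 390.5, 387.1 and 515.7 on controls 1 to 4. The first 2 replicates were 5.55 and 7.99 times the control median, and replicates 3 and 4 were inside the control range. The log2 fold change was 1.32 ± 0.63 (limma, adjusted p = 0.758), and 0.04 ± 0.14 without Cre+ replicates 1 and 2. The other probe set read 42.3, 43.3, 11.2 and 9.6 against 22.5, 10.5, 13.9 and 14.3, with a log2 fold change of 0.35 and the same pair of arrays highest. Of 6 choroid plexus genes none passed limma, and 0 had an unadjusted p under 0.05. Ttr, Clic6 and Kcne2 were highest on Cre+ replicates 1 and 2 and on control 4, which also had the highest Igf2 of the controls; Ttr, the transthyretin gene, read 4671.6, 5232.5 and 2863.6 on those arrays. Otx2 differed from its control mean by 0.15 and -0.25 on replicates 1 and 2 on the log2 scale, and Folr1 by 0.79 and 0.06. The mean over the 6 genes was 1.54 and 1.32 on replicates 1 and 2 and 1.08 on control 4. Their summed intensity was 2054 to 7547 in Cre+ brain and 2191 to 5408 in controls, and their part in the Igf2 values was not tested.

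None of 13 other measured genes of the insulin-like growth factor axis passed limma (0 higher, 0 lower), and 3 of them had an unadjusted p under 0.05. Igf1, the sister growth factor, read 128.6, 357.7, 65.4 and 49.8 on Cre+ replicates 1 to 4 against 25.5, 29.7, 23.9 and 42.2, and so was above every control on all 4 (log2 fold change 1.51 ± 0.49; limma, adjusted p = 0.593). Igf2r, the receptor that clears IGF2, had a log2 fold change of 0.4 ± 0.13 (limma, adjusted p = 0.612), with its Cre+ replicate 3, at 472.4, inside the control range. Igfbp7, a secreted binding protein, had a log2 fold change of 0.16 ± 0.07 (limma, adjusted p = 0.727). Of 7 other imprinted growth genes none was called by limma, 0 had an unadjusted p under 0.05, and the list mean on Cre+ replicates 1 and 2 was 0.09 and 0.14. The pair was highest for 2 of the 7, Mest and Plagl1. Mest, also known for mesodermal expression, read 3745.4 and 3410.5 on the pair and at most 3084.9 elsewhere. It had a log2 fold change of 0.17 ± 0.12 and Plagl1 one of 0.11 ± 0.07 (limma, adjusted p = 0.844 and 0.822), and Meg3 one of -0.09 ± 0.07.

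Of the retinoid genes, Aldh1a2 encodes the enzyme that makes retinoic acid in meninges and Crabp2 encodes a carrier that takes retinoic acid to its nuclear receptors. Aldh1a2 read 22.5, 166.3, 1.7 and 0.5 on Cre+ replicates 1 to 4 and 9.7, 3.6, 2.8 and 21.3 on controls 1 to 4. Replicate 2 was far above every control, replicate 1 was just above the highest control, and replicates 3 and 4 were below every control at intensities where the signal is dim. The log2 fold change was 0.63 ± 0.71 (limma, adjusted p = 0.917), -0.12 when replicate 2 alone was left out and -0.51 ± 0.28 when replicates 1 and 2 were. It was 0.29 against the male controls alone and 0.22 with the Y-linked gene Eif2s3y as a covariate.

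Crabp2 was the exception among the 10 genes. Its intensities were 1686.4, 1426.5, 1735.3 and 2082.1 on Cre+ replicates 1 to 4 and 1776.3, 1873.8, 2083 and 2031.9 on controls 1 to 4. Replicates 1, 2 and 3 were below every control and replicate 4 was inside the control range, for a log2 fold change of -0.17 ± 0.12 (limma, adjusted p = 0.84), and -0.03 ± 0.11 without Cre+ replicates 1 and 2. On replicates 1 and 2 it stood at 0.864 and 0.73 times the control median.

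None of 15 other measured genes of the retinoic acid pathway passed limma in either direction, and 2 had an unadjusted p under 0.05. Crabp1, a related carrier known from hindbrain neurons and neural crest, read 1538.6, 1556.5, 1665.8 and 1747.3 on Cre+ replicates 1 to 4 and 1441, 1253.5, 1129 and 1153 on controls 1 to 4. Every Cre+ array was above every control, and replicates 1 and 2 were the lowest of the 4 (log2 fold change 0.39 ± 0.09; limma, adjusted p = 0.389). Rarb, a retinoic acid receptor that is itself induced by the ligand, read 91.9, 162.8, 79.9 and 56.2 against 65.5, 46.1, 38.8 and 53.8, with all Cre+ arrays but replicate 4 above every control (0.7 ± 0.26; limma, adjusted p = 0.674). Dhrs3, which reduces retinal, had a log2 fold change of 0.57 ± 0.26 (limma, adjusted p = 0.742).

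**Figure D3:**
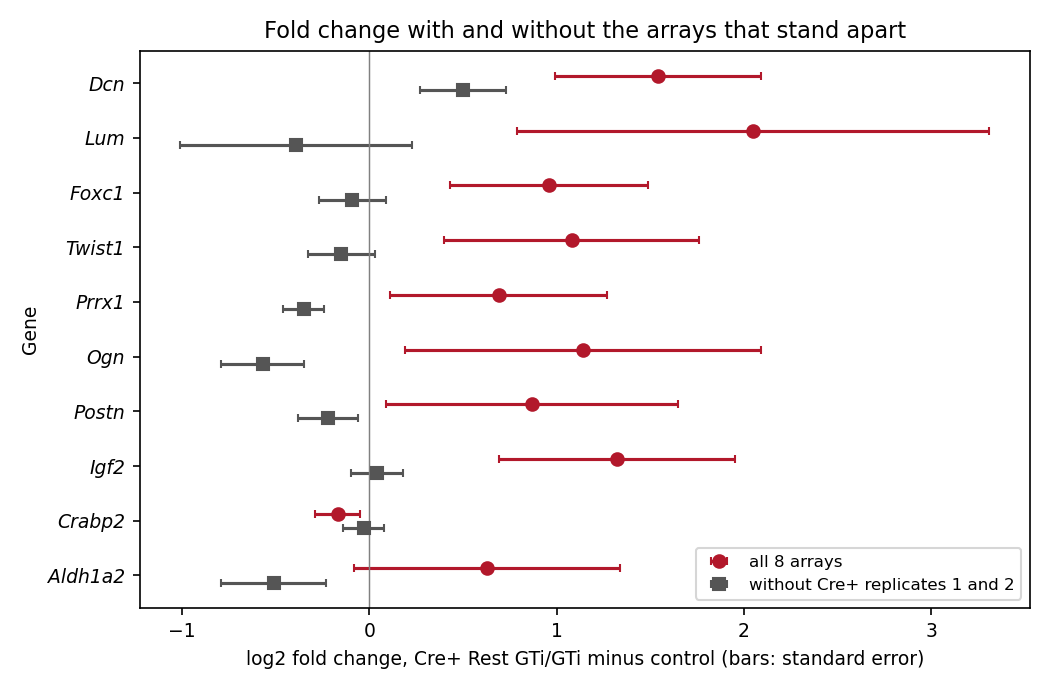
Log2 fold change (Cre+ Rest GTi/GTi minus control) of the brightest probe set of each gene with all 8 arrays (circles) and without Cre+ replicates 1 and 2 (squares); bars are standard errors from limma. With all arrays 9 genes are above 0, and without the 2 arrays 2 are, Dcn and Igf2.

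Replicates 1 and 2 differed from each other within the 10 genes. Replicate 2 was the highest array for 8 genes, and the log2 difference of replicate 2 minus replicate 1 was 3.22 for Postn, 2.48 for Ogn, 2.24 for Aldh1a2, 1.67 for Prrx1 and 1.66 for Twist1. It was 0.52 for Igf2, 0.47 for Lum and 0.4 for Foxc1, and it was -0.78 for Dcn and -0.24 for Crabp2. The 2 arrays thus carried Lum, Igf2 and Foxc1 at like levels, and Postn, Ogn and Aldh1a2 mainly on replicate 2; with 1 array each, this difference has no replicate check.

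Related lists were read on the same pair of arrays, and the difference between lists was not tested. For 12 meningeal fibroblast genes the mean log2 difference from the control mean was 1.54 on Cre+ replicate 1 and 1.25 on replicate 2, whereas for 22 mesenchymal transcription factor genes it was 0.64 and 1.6. None of the 12 and none of the 22 passed limma, with 1 and 0 at an unadjusted p under 0.05. Slc6a13 and Slc6a20a, transporter genes of leptomeningeal fibroblasts, read 46.9 and 69.5 on replicate 1 and 5.8 and 13.2 on replicate 2. Tbx18, a T-box gene of mural and meningeal cells counted here among the transcription factors, read 304.9 and 118.1. Six2 and Alx1, homeobox genes of craniofacial mesenchyme, read 59.1 and 13.7 on replicate 1 and 617.9 and 185.5 on replicate 2. Those 5 genes were chosen after their values were seen. Neither list was uniform, and Aldh1a2 itself, an enzyme gene of meninges, was higher on replicate 2. Serpinf1 of the meningeal list read 172.7 on replicate 1 and 304.2 on replicate 2. Of the transcription factors, Osr1 read 105.8 and 83.6 and Msx1 276.5 and 261.1, so neither was higher on replicate 2. Islr and Cxcl12, among the 3 meningeal genes with the smallest p, were high on both arrays, at 309 and 481.8 for Islr against 22.1 to 34.4 in controls and at 657.6 and 724.6 for Cxcl12 against 84.6 to 157.5. Slc22a6, an organic anion transporter gene of meninges, read 45.1 and 26.1 there, with log2 fold changes of 0.71 for Slc22a6, 1.61 for Islr and 1.23 for Cxcl12 (limma, adjusted p = 0.719, 0.763 and 0.772). Among the transcription factors, Snai2 had a log2 fold change of 1.45 ± 0.72, Prrx2 of 0.97 ± 0.5 and Meox2 of 0.62 ± 0.3 (limma, adjusted p = 0.766, 0.777 and 0.759).

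**Figure D4:**
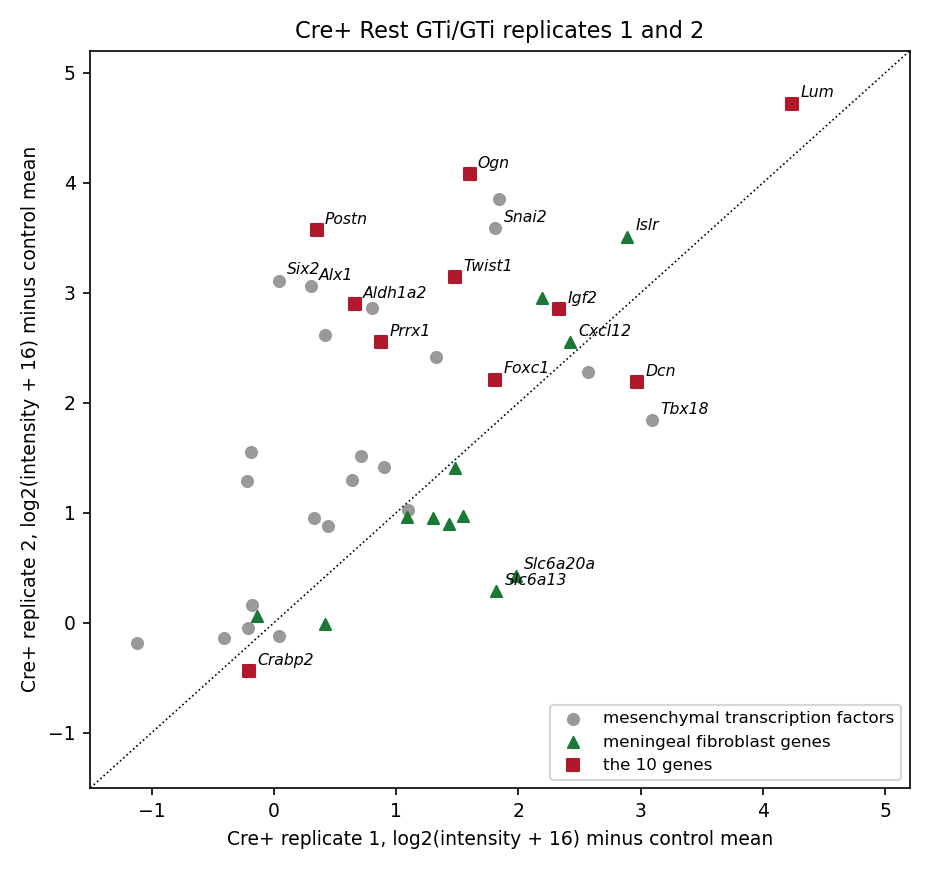
Difference of log2(intensity + 16) from the control mean on Cre+ replicate 1 (horizontal) and replicate 2 (vertical) for the 10 genes (squares), 12 meningeal fibroblast genes (triangles) and 22 mesenchymal transcription factor genes (circles); the dotted line marks equal values. Postn, Ogn, Aldh1a2, Twist1 and Prrx1 lie above the line and Dcn below it.

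Matrix genes outside the 10 were read in 3 lists. Of 10 other small leucine-rich proteoglycan genes none passed limma, 2 had an unadjusted p under 0.05, 4 had Cre+ replicates 1 and 2 as the highest arrays, and the mean difference was 0.52 and 0.87 on Cre+ replicates 1 and 2. Bgn, the biglycan gene, read 636.1 and 564.2 on them, 218.5 and 170.2 on replicates 3 and 4, and 166.1 to 182.9 in controls (log2 fold change 0.93 ± 0.39; limma, adjusted p = 0.711). Ecm2 and Aspn, which lie with Omd beside Ogn on chromosome 13 in the GRCm38.p6 annotation, had log2 fold changes of 0.61 ± 0.17 and 0.68 ± 0.3 (limma, adjusted p = 0.51 and 0.733) at intensities of at most 37.9. Ecm2 was highest on Cre+ replicate 4, at 21.7, and its replicate 2, at 11.3, was inside the control range. Of 23 further matrix protein genes none passed and 1 had an unadjusted p under 0.05, yet 18 had Cre+ replicates 1 and 2 highest, with list means of 0.79 and 1.57. Fbn2, a fibrillin gene, read 536.4 and 1045.7 there against 83.3 to 167.2 in controls (log2 fold change 1.36 ± 0.61; limma, adjusted p = 0.735). Fibril and microfibril collagen genes, 9 in all, had the pair highest in 9 of 9 and means of 2.29 and 3.15, and none of these 9 passed limma either, 0 of 9 with an unadjusted p under 0.05.

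Beside these, markers of other tissues were read on the same arrays, and their part in the members' values was not tested. The mean differences on Cre+ replicates 1 and 2 were 0.68 and 0.54 for 9 endothelial genes, with a summed intensity of 987 to 1539 in Cre+ brain and 832 to 969 in controls, and 0.74 and 0.77 for 8 pericyte genes, with sums of 1891 to 2620 and 1690 to 1854. None of either list passed limma, and 3 endothelial and 4 pericyte genes had an unadjusted p under 0.05. Replicates 1 and 2 were the highest arrays for 8 endothelial and 3 pericyte genes, against 5.92% of all probe sets. Acta2 led the pericyte list on both, at 2.43 and 3.6. Cldn5 and Eng of the first list, and Rgs5 and Cspg4 of the second, were above every control on all 4 Cre+ arrays. That holds for 1.87% of all probe sets. For tissues outside brain and meninges the means on Cre+ replicates 1 and 2 were -0.03 and 0.73 for 12 skeletal muscle genes, 0.07 and 0.86 for 9 cartilage and bone genes, 0.22 and 0.98 for 9 surface epithelium genes, and -0.22 and 0.88 for 3 neural crest and Schwann cell genes. Summed intensities for these 4 lists were 242 to 625, 484 to 1591, 161 to 566 and 55 to 189 in Cre+ brain and 230 to 260, 638 to 793, 164 to 196 and 53 to 81 in controls. Replicate 2 had the highest sum in all 4, but the epithelial sum on replicate 1, at 249, and the neural crest sums on replicates 3 and 4, at 97 and 85, were also above every control. Sums weigh bright genes most: on replicate 2 Erbb3 read 118.1 of the neural crest sum, Col2a1 1096.9 of the cartilage and bone sum and Actc1 201.6 of the muscle sum. On the log2 scale Des, Ibsp, Alpl and Krt15 were below their control means there, and the other genes of these lists were above theirs, Chrna1 by only 0.01. The muscle regulators Myod1 and Myf5 stayed at or under 23.7 and 5.9 on every array, while Myog read 30.4 on Cre+ replicate 2 and at most 6.2 elsewhere, and none of these 4 lists held a call. Microglial genes followed genotype instead of this pair, with 8 of 8 higher by limma, where 0.214% of all genes were called higher, and means of 1.3 to 1.5 on all 4 Cre+ arrays.

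**Figure D5:**
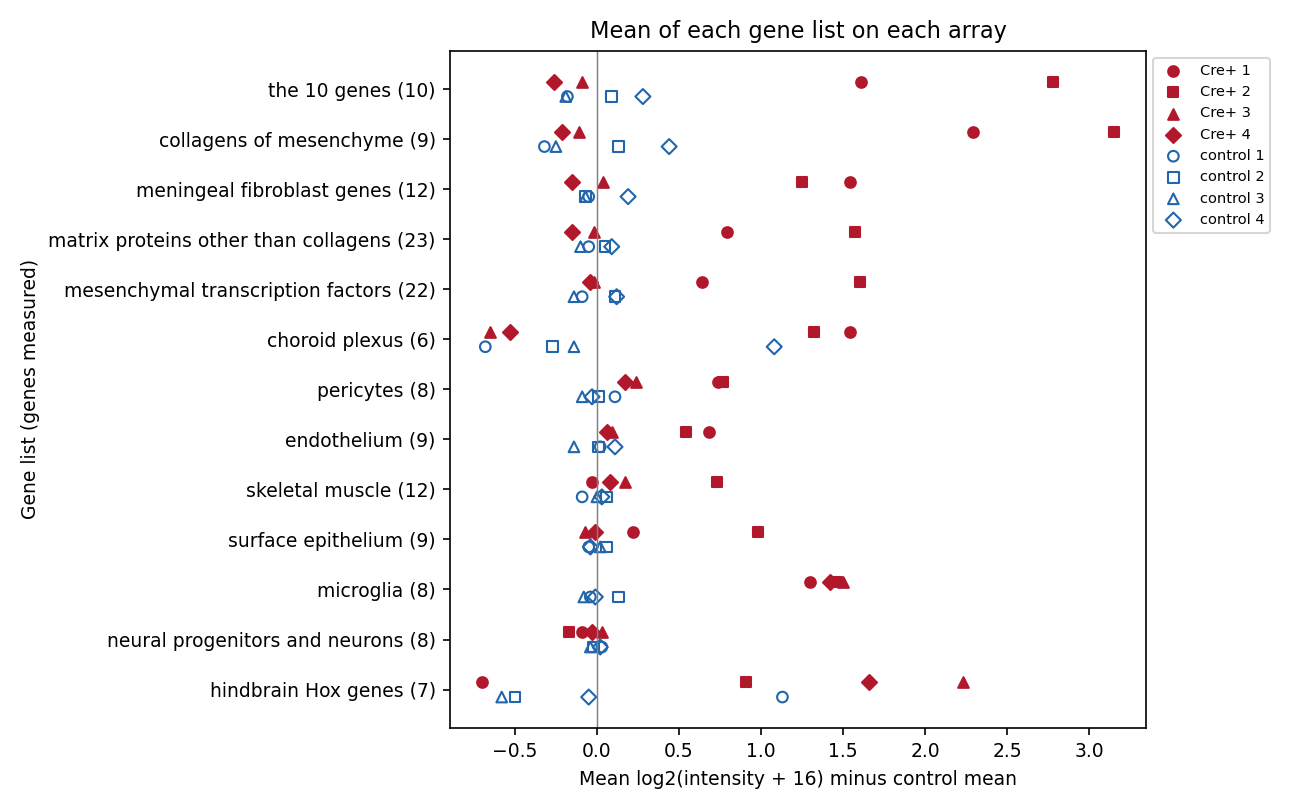
Mean difference of log2(intensity + 16) from the control mean for each gene list (rows, number of genes measured in brackets) on the 4 Cre+ Rest GTi/GTi arrays (filled) and the 4 controls (open). The 10 genes, collagens and meningeal genes are high on Cre+ replicates 1 and 2, muscle and epithelial genes are highest on replicate 2, and microglial genes are high on all 4 Cre+ arrays.

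Genes other than the 10 were searched for profiles over the 8 arrays most like the mean profile of the 10, which was 1.61, 2.78, -0.09 and -0.26 on Cre+ replicates 1 to 4 and -0.18, 0.09, -0.19 and 0.28 on controls 1 to 4. Likeness was the root mean square log2 difference over the 8 arrays, among 9799 genes with a mean intensity of at least 100, whose median was 1.16. The mean was taken over all 8 arrays, and 4 of the nearest 8 (Tgfbi, Ahnak, Mmp2 and Pdgfra) had a control mean under 100 and passed through their high Cre+ arrays. The nearest were S1pr3 at 0.2, Lgals1 at 0.22, Cnn2 at 0.23, Tgfbi at 0.23, Gpc3 at 0.24, Ahnak at 0.26, Mmp2 at 0.27 and Pdgfra at 0.28. S1pr3 encodes a sphingosine phosphate receptor, Lgals1 a galectin, Cnn2 a calponin, Tgfbi a matrix protein, Gpc3 a glypican, Mmp2 a matrix metalloprotease and Pdgfra a growth factor receptor of mesenchyme. Pdgfra read 235.6 and 708.9 on Cre+ replicates 1 and 2, 52.2 and 49.7 on replicates 3 and 4, and 33.9 to 100.5 in controls. Among the 10, which are part of that mean, Foxc1, Twist1, Igf2 and Prrx1 were nearest to it at 0.26 to 0.31, while Lum at 1.26 and Crabp2 at 1.32 were farthest, Lum by its size and Crabp2 by its flat profile.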

How the data were processed

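Per the labels and the methods, total RNA of E12.5 brain was extracted with Trizol and a Qiagen column, labelled with biotin and hybridized to Affymetrix Mouse 430_2 arrays, 4 per genotype. The authors named RMA as their normalization and a t-test on log2 values with Benjamini-Hochberg adjustment; versions were not given in the sources used here. The deposited values are intensity values on a linear scale, near 0 at their lowest, with array medians of 40.9 to 68, so that they do not look like RMA output and the software that made them is not known.

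The 64 Affymetrix control probe sets were left out of 45101. Values were quantile-normalized, 16 was added and log2 taken, and the genotypes were compared with limma 3.58.1 in R 4.3.3 (lmFit, eBayes, no covariate), with Benjamini-Hochberg adjustment over all 45037 probe sets and a threshold of 0.05. The scaling and the constant follow an earlier analysis of these data. A gene stands by its probe set of highest mean; 34945 probe sets named 1 gene in the platform annotation, 932 named several and were not used for names, and 9160 named none. The members, the 19 other gene lists and the tests were chosen with earlier results of these data known. The rule for naming took the 10 members, up to 3 genes of each list by smallest p, and the 8 nearest profiles. Not all of these are discussed. Further genes were named outside the rule and not by p, such as Ttr, Clic6, Otx2, Serpinf1, Osr1, Msx1, Acta2, Col2a1, Actc1, Des, Alpl and Krt15. Of 221 listed genes, 16 have no probe set here and were not analysed.

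Nothing states that embryos came from separate litters, so p-values measure the spread between these arrays, whose number limits the precision. Same-numbered arrays of the 2 genotypes had residual correlations of -0.13 to 0.00676, so numbers were not taken as pairs. Alternatives were the methods' t-test, other scalings and constants, a filter on dim probe sets, array weights, a replicate block and leaving out arrays. Leaving out Cre+ replicates 1 and 2 together, male controls alone and the Y-linked gene Eif2s3y as a covariate were added after seeing the data. The fit was checked on simulated data.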

Additional observations from a re-analysis of the deposited data

Results flagged for a closer look

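Among 20 groups of 4 arrays, the 10 genes in each genotype, 2 held an array far from the other 3. For independent groups chance gives about 1 in 20, but these groups share their arrays, so that rate is no measure here. Where 2 arrays of a group are high together, the rule can also miss them. Postn on Cre+ replicate 2, at 857.3, stood apart from 77.6, 48.7 and 45.6 on the other Cre+ arrays, with a gap of 0.842 of the group's range on the log2 scale. Igf2 on control 4, at 515.7, stood apart from 387, 390.5 and 387.1 on the other controls, with a gap of 0.969 of the range.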

How the results depend on the processing

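The count of 0 member probe sets passing the test held under every alternative run, 0 without any one replicate included, and adjusted p-values of the 10 genes ranged from 0.372 to 1. The median log2 fold change of 1.02 became 0.76 with a constant of 50 and -0.19 without both Cre+ replicates 1 and 2. Leaving out each array in turn gave 0.27 to 1.4, the lowest without Cre+ replicate 2 and the highest without Cre+ replicate 3 or 4. Probe sets with every Cre+ array above every control numbered 0 to 2 when each array was left out, with 1 without Cre+ replicate 4 and 2 without control 4. Of 239 single-gene alternatives 230 kept the direction and 9 reversed. The 230 include settings that leave the fold change as it is, such as the t-tests, the filter on dim probe sets and the replicate block. In those the direction could not reverse, so the count does not measure how firm it is. Without both Cre+ replicates 1 and 2 the log2 fold change was -0.39 for Lum, -0.09 for Foxc1, -0.15 for Twist1, -0.35 for Prrx1, -0.57 for Ogn, -0.22 for Postn and -0.51 for Aldh1a2. Without Cre+ replicate 2 alone it was -0.03 for Postn and -0.12 for Aldh1a2, and leaving out each array in turn gave -0.03 to 1.24 for Postn and -0.12 to 1.03 for Aldh1a2, the highest of both without Cre+ replicate 4. Aldh1a2 was at 0.29 against male controls alone and at 0.22 with Eif2s3y as a covariate. The replicate block changed no call, with 0 probe sets passing and a median of 1.02; no array correlated best with its own number (0 of the pairs). Of the 19 probe sets, 2 had a mean under the constant of 16, as did 30.6% of all, and changes there are bounded by background.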

Other observations

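Kera and Epyc, small leucine-rich proteoglycan genes, follow Dcn and Lum on chromosome 10 in the GRCm38.p6 annotation; they were chosen after their values were seen. Epyc read 35.6, 122.3, 1 and 5.8 on Cre+ replicates 1 to 4 and 1.3 to 10.4 in controls, with a log2 fold change of 0.89 ± 0.59 (limma, adjusted p = 0.83). Kera read 11 on Cre+ replicate 2 and at most 1.3 on the other 7 arrays.

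Hindbrain Hox genes had a different order of arrays, with mean log2 differences of -0.7, 0.91, 2.23 and 1.66 on Cre+ replicates 1 to 4 and 1.13 on control 1, so that their highest arrays were Cre+ replicates 3 and 4, near the controls for the 10 genes. Hoxb3 read 1.8, 178.7, 746 and 434.5 on the Cre+ arrays and 172.6, 6.9, 9.3 and 12.8 on the controls. None of the 7 measured Hox genes passed limma, 0 of 7 with an unadjusted p under 0.05. Erythroid genes had a mean of 0.8 on Cre+ replicate 1 and of 0.09 on replicate 2, with 0 of 5 called and 0 of 5 at an unadjusted p under 0.05; Alas2 read 455 on replicate 1 and 94.9 to 184.3 elsewhere.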
